A study of Homo sapiens with 8 samples.

Results

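The genes described here are those named for proteins of the mitochondrial ribosome, taken as the gene symbols that begin with MRPS or MRPL followed by a number. The table of 60234 gene rows held 84 such rows, and 8 of them were second identifiers of a symbol already present (MRPL30, MRPS17 and MRPS18B), of which the row with the highest mean was kept. This left 76 genes, 29 with an MRPS and 47 with an MRPL symbol. By the place of the protein 26 belong to the small and 49 to the large subunit, since MRPS18A and MRPS30 sit in the large subunit, and MRPS36 was placed in neither. Of these, 75 had a mean of at least 1 CPM (reads of a gene scaled to the same total in every library) over the 8 libraries and entered the tests. The exception was MRPL30, with a single read, in control replicate 3.

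Expression was measured in Rh41, a human line established from an alveolar rhabdomyosarcoma, which carries the PAX3-FOXO1 fusion gene, in 4 control libraries and 4 libraries labelled siG9a, with knockdown of G9a, the histone H3 lysine 9 methyltransferase encoded by EHMT2. Both groups are the same line with the same fusion and differ, by the labels, in the knockdown alone. The series' title writes the knockdown as shG9a, and the reagent given to the control cells and the time after knockdown are not given in the sources used here. The series describes the libraries as biological replicates of 1 cell line, and both groups carry the replicate numbers 1 to 4, so each comparison was made over the groups and by number. The libraries were made with a 3′ mRNA kit, which reads the ends of polyadenylated transcripts.

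Mitochondria keep a small genome and their own ribosome, which makes the core subunits of the respiratory chain and of the ATP synthase. The 2 ribosomal RNAs of that ribosome, MT-RNR1 and MT-RNR2, are encoded in mitochondrial DNA, whereas all of its proteins are encoded in the nucleus, made in the cytosol and imported. Some of these proteins have a counterpart in the bacterial ribosome and others are found only in mitochondria. Many nuclear genes for mitochondrial proteins have promoters with sites for NRF1, for ETS factors such as GABPA, or for YY1.

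RefSeq promoters (GRCh38.p14, 300 bases from 250 before to 50 after the start) were matched to 67 of the 76 genes and searched on both strands for the core letters of these sites. The ETS core CCGGAAG was present in 28 of 67 (41.8%), against 10.7% of all 27305 promoters and 19.4% of the 9531 promoters of tested genes. The YY1 core AAGATGG was present in 23 (34.3%), against 6.06% and 7.71%. The NRF1 core GCATGCGC was present in 6 (8.96%), against 3.27% and 5.60%. A match of letters is not evidence of binding, and the windows hold no measurement from these cells. The stretches from 130 bases before to 30 bases after the start are shown for 5 genes whose groups did not overlap and for the gene with the most reads, because together they cover each kind of match and its absence. Capitals mark a core match on either strand.
MRPS9, chr2:105037939-105038098, plus strand, no match: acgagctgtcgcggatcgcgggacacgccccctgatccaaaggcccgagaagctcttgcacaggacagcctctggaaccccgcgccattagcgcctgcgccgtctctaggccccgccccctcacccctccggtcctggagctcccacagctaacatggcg
MRPL45, chr17:38297038-38297197, plus strand, YY1 core: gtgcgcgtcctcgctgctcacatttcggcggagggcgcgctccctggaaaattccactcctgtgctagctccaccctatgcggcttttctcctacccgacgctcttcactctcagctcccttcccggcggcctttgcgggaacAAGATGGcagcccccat
MRPL33, chr2:27771589-27771748, plus strand, ETS core: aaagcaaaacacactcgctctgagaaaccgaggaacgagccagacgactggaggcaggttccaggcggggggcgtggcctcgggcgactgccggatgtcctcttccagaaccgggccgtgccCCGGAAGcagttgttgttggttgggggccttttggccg
MRPS22, chr3:139343864-139344023, plus strand, ETS core at 3 places: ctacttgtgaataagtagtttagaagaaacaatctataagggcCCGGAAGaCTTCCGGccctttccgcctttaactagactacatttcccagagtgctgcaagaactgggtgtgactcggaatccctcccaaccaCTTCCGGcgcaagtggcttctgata
MRPL28, chr16:370509-370668, minus strand, ETS core: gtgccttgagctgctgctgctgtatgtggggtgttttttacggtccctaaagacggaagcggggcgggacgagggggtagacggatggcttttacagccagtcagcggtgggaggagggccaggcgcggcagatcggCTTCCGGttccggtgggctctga
MRPS18B, chr6:30617710-30617869, plus strand, NRF1 core and then YY1 core: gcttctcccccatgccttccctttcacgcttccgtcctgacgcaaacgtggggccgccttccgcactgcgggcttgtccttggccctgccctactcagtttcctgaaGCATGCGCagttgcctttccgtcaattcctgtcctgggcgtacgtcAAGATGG
MRPS9 and MRPL45, the genes with the smallest adjusted p, thus had no match and a YY1 match in these stretches, and an ETS match stood both in genes that were higher (MRPL33, MRPS22) and in one that was lower (MRPL28). The median log2 change was 0.05 over the genes with the ETS core and 0.36 over those without it, 0.26 and 0.16 for the YY1 core, and 0.24 and 0.18 for the NRF1 core.

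The libraries held 1458825 to 1938665 reads assigned to genes, so 1 read was worth 0.516 to 0.685 CPM, and the floor of 3 reads lay at 1.55 to 2.06 CPM. EHMT2 measured 36.6 ± 16.2 CPM in siG9a and 75.3 ± 15.05 CPM in control (SD, n = 4 each), and was lower in 4 of 4 pairs (limma adjusted p 0.191 without and 0.000472 with the block, exact permutation p = 0.0571 where 0.0286 is the smallest possible). The 2 libraries numbered 3 stood apart. The summed CPM of 14 rhabdomyosarcoma markers was lowest in replicate 3 of both groups (450.1 and 441 CPM). The other libraries had 2138 to 2360 CPM in control and 1227 to 1691 CPM in siG9a. The sum of 8 neuronal markers was highest in replicate 3 (9611 and 8938 CPM). It was 202 to 2059 CPM in the other controls and 237 to 2963 CPM in the other siG9a libraries. Replicate 1 of both groups stood apart in the other direction, with the lowest neuronal sums (202 and 237 CPM). The neuronal sum was carried by the neurofilament genes NEFM (8046 and 7625 CPM in replicate 3) and NEFL (1557 and 1302 CPM), whereas SYT1 was lowest in replicate 3 of both groups (4.92 and 2.28 CPM) and TUBB3 was at 0 in control replicate 3. MYOD1, the myogenic regulator that marks this tumour, measured 95.3 and 128 CPM in the replicate 3 libraries and 608 to 864 CPM in the other 6. The rhabdomyosarcoma sum was also lower in siG9a in each pair (2360 and 1661, 2138 and 1227, 450.1 and 441, and 2229 and 1691 CPM). With the block 6 of the 14 markers fell (42.9%, against 11.4% of all genes called), DES by 1.77 and CHRNA1 by 1.15 on the log2 scale among them. The other markers were not called, and 5 of the 14 had a log2 change above 0, among them MYCN (0.65), FOXO1 (0.23) and CHRND (0.21). MYOD1 and PAX3 had changes of -0.03 and -0.08. The part of these marker changes in the changes below was not tested. No marker of any list was at 0 in all libraries, but some had only 1 read over all libraries, such as LUM and THY1. Summed CPM ran from 118 to 409 in control and 52.0 to 323 in siG9a for 8 fibroblast markers, and from 10.3 to 76.2 and 24.1 to 44.0 for 6 epithelial markers. The fibroblast sum was carried by COL3A1 (mean 183 CPM) and COL1A1 (42.6 CPM), whereas DCN had a mean of 0.42 CPM. Of the epithelial markers, KRT18 had a mean of 15.6 CPM and EPCAM of 0.16 CPM. In such bulk libraries, a change in the share of cells of a kind and a change in RNA per cell cannot be told apart.

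Together the 76 genes took 0.493%, 0.556%, 0.744% and 0.600% of the reads of the control libraries, in the order of their numbers, and 0.536%, 0.559%, 0.767% and 0.601% of those of the siG9a libraries. The siG9a library was above the control library of the same number in each pair, but the groups overlapped, and replicate 3 stood further above the other libraries of its group than the libraries of any pair stood apart. Single genes followed the same order: replicate 3 was the highest library of both groups for 41 of 75 genes (54.7%), against 20.1% of all 15092 genes tested. The median gene was 0.47 higher on the log2 scale in control replicate 3 than in the average of control replicates 1, 2 and 4, and 0.44 higher in siG9a replicate 3, where the median over all genes was 0.01 and 0.00. MRPL3, a large subunit protein with a bacterial counterpart, shows this pattern, with 34.3, 37.1, 89.2 and 48.3 CPM in control and 49.0, 53.3, 114 and 57.4 CPM in siG9a. The 80 cytosolic ribosomal protein genes tested had a shift of 0.06 in control and 0.00 in siG9a, and replicate 3 was highest in both groups for 23.8% of them. The part of the cell marker differences in the replicate 3 shift was not tested.

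Without the block, limma called 0 of the 75 genes at an adjusted p under 0.05, as it called 0 of all 15092 genes (0.0%). The smallest adjusted p among the 75 was 0.117, and 11 had an unadjusted p under 0.05, as did 1880 of all 15092 genes. On the recovered reads edgeR also called 0, and DESeq2 called 2 (MRPL45 and MRPS9, both higher) among 291 of all genes (1.93%). With the replicate number as a block, limma called 9 of 75 genes (12%), 7 higher and 2 lower in siG9a. This share is near the background, since the same fit called 11.4% of all genes, 4.86% higher and 6.52% lower. Below, "rose" and "fell" refer to calls of the fit with the block, and each adjusted p is limma's. The groups did not overlap for 5 genes that were higher (MRPS9, MRPL45, MRPL33, MRPS22 and MRPS14; 3.88% of all genes) and 2 that were lower (MRPL23 and MRPL28; 3.45% of all genes). Without replicate 3 the block called 7 of the 75 genes, 6 higher and 1 lower, where it called 7.14% of all genes.

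**Figure D1:**
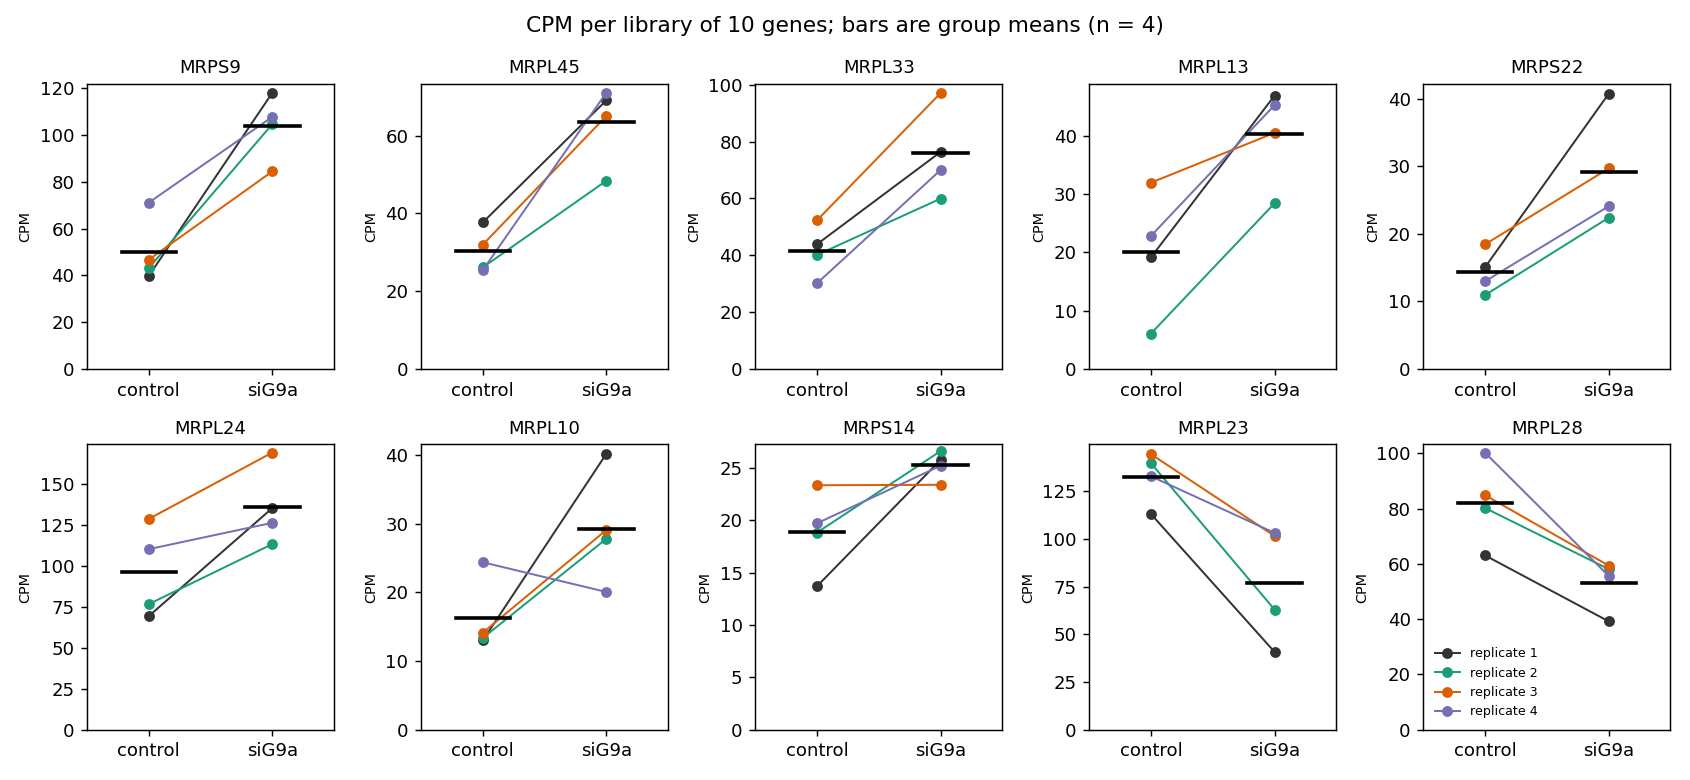
CPM (vertical axes, from 0) in each of the 8 libraries for the 9 genes called with the block and MRPS14. Points are libraries, lines join equal replicate numbers and black bars are group means (n = 4). Lines run upward in 4 of 4 pairs in 7 panels and downward in 4 of 4 pairs for MRPL23 and MRPL28; MRPL10 goes up in 3 of 4.

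Among small subunit genes, 2 of 26 rose and 0 fell (7.69% called, against 11.4% of all genes). MRPS9, the counterpart of bacterial protein S9, measured 39.8, 43.1, 46.7 and 71.1 CPM in control and 118, 105, 84.5 and 108 CPM in siG9a (here and below in the order of replicates 1 to 4). Its lowest siG9a library, replicate 3, was above its highest control library, replicate 4. The means were 50.2 ± 14.3 and 104 ± 14.1 CPM (SD, n = 4 each), a log2 change of 1.06 ± 0.18 (SE with the block; adjusted p 0.000353 with and 0.117 without it). MRPS22, a protein with no bacterial counterpart in which inherited mutations cause mitochondrial disease, measured 15.1, 10.9, 18.45 and 12.98 CPM in control and 40.75, 22.4, 29.7 and 24.1 CPM in siG9a. All siG9a values were above all control values, and the log2 change was 0.96 ± 0.24 (adjusted p 0.0109 with and 0.213 without the block). That call was lost without replicate 1 or without replicate 2 (adjusted p up to 0.0922 over the alternatives run). MRPS14, the counterpart of bacterial S14, measured 13.7, 18.8, 23.37 and 19.7 CPM in control and 25.8, 26.6, 23.41 and 25.2 CPM in siG9a. Its groups were parted only by the 0.04 CPM between the replicate 3 libraries, less than 1 read is worth, and it was not called (log2 change 0.42 ± 0.24, adjusted p 0.282 with the block).

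The other 23 small subunit genes did not pass either fit. MRPS18B had the highest level of all 76 genes, at 416, 619, 749 and 596 CPM in control and 422, 651, 707 and 713 CPM in siG9a, a log2 change of 0.07 ± 0.13. It is 1 of 3 human paralogs of bacterial S18, and the others, MRPS18C in the small subunit and MRPS18A, which sits in the large subunit, had log2 changes of 0.31 ± 0.18 and 0.06 ± 0.17. MRPS18C was higher in 4 of 4 pairs (50.2 against 49.8 CPM in the closest, pair 2), with an adjusted p of 0.301 with the block. MRPS21 (mean 233 CPM), MRPS34 (109 CPM) and MRPS11 (51.7 CPM) had log2 changes of 0.16 ± 0.14, 0.04 ± 0.17 and -0.04 ± 0.20. MRPS12, the protein of the decoding centre, was lower in 4 of 4 pairs, with 168, 182, 259.5 and 173 CPM in control and 153.2, 153.1, 229.5 and 151 CPM in siG9a, but its groups overlapped and its adjusted p was 0.437. MRPS24 was the lowest gene with a test, at 1.55 to 6.05 CPM, which is close to the floor, and a fused transcript listed as URGCP-MRPS24 overlaps it. The median log2 change of the 26 genes was 0.07, with 16 above 0.

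Of the 48 large subunit genes tested, 5 rose and 2 fell (14.6% called, against 11.4% of all genes), and the median log2 change was 0.30, with 32 above 0. MRPL45, a mitochondria-specific protein at the exit of the peptide tunnel that lies next to the inner membrane, measured 37.7, 26.1, 32.0 and 25.4 CPM in control and 69.1, 48.4, 65.1 and 71.1 CPM in siG9a. No control library reached the lowest siG9a library, replicate 2. The means were 30.3 ± 5.73 and 63.4 ± 10.3 CPM (SD, n = 4 each), a log2 change of 1.04 ± 0.19 (adjusted p 0.000731 with and 0.117 without the block). The pseudogene MRPL45P2, 1 of 66 pseudogene rows of this family and the only one with a mean of at least 1 CPM, had a mean of 8.65 CPM, and reads could be split between the copies. MRPL33, the counterpart of bacterial L33, measured 43.9, 40.1, 52.3 and 30.1 CPM in control and 76.3, 59.9, 97.1 and 69.97 CPM in siG9a. Each siG9a library was above every control library, and the log2 change was 0.86 ± 0.18 (adjusted p 0.00251 with and 0.197 without the block). Its exons overlap those of BABAM2 on the same strand (15.6 CPM, log2 change -0.04).

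MRPL13, the counterpart of bacterial L13, measured 19.2, 6.08, 32.0 and 22.85 CPM in control and 46.9, 28.45, 40.5 and 45.3 CPM in siG9a. It was higher in 4 of 4 pairs, but siG9a replicate 2 lay below control replicate 3, so the groups overlapped. Its log2 change was 1.15 ± 0.25 (adjusted p 0.00330 with and 0.294 without the block), and the call was lost without replicate 2. MRPL24, which binds early in large subunit assembly in bacteria, measured 69.2, 76.6, 129 and 110.1 CPM in control and 135, 113, 169 and 126 CPM in siG9a. It was higher in 4 of 4 pairs with overlapping groups, by 0.53 ± 0.16 (adjusted p 0.0338 with and 0.399 without the block). MRPL10, the base of the stalk that recruits translation factors, measured 13.02, 13.4, 14.1 and 24.4 CPM in control and 40.2, 27.8, 29.1 and 20.1 CPM in siG9a. Pair 4 ran against the other 3 pairs, and the log2 change of 0.82 ± 0.27 had an adjusted p of 0.0479 with and 0.304 without the block. Both calls were lost without replicate 3, with adjusted p of 0.0903 for MRPL24 and 0.169 for MRPL10, and likewise without replicate 1 or 2. They were also lost with no filter on the mean, and that of MRPL10 with a pseudocount of 0.1 or 5 CPM.

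The 2 genes that fell were both large subunit proteins with bacterial counterparts. MRPL23, which lies beside the exit of the peptide tunnel, measured 113, 139.8, 145 and 133 CPM in control and 40.75, 62.95, 102 and 103 CPM in siG9a. Every siG9a library was below every control library, with replicates 1 and 2 the lowest. The means were 133 ± 13.8 and 77.1 ± 30.6 CPM (SD, n = 4 each), a log2 change of -0.86 ± 0.18 (adjusted p 0.00216 with and 0.254 without the block). MRPL28 measured 63.1, 80.2, 84.9 and 100.2 CPM in control and 39.2, 58.1, 59.4 and 55.6 CPM in siG9a. Its groups did not overlap either, and the log2 change was -0.62 ± 0.17 (adjusted p 0.0182 with and 0.300 without the block), but the call was lost when any 1 of the 4 pairs was left out (0.0605 without replicate 3). Exons of MRPL28 overlap those of TMEM8A on the same strand, which measured 40.4 CPM with a log2 change of -0.07.

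The calls of MRPS9, MRPL45, MRPL33 and MRPL23 held when any 1 pair was left out, and none of the 9 changed sign in the 22 alternatives run. Not all of these are separate checks. With the block, leaving out 1 library gives the same estimate as leaving out its pair, and other filters or no trend leave the estimate unchanged. All 9 calls rested on limma's variance trend with the level of expression: without the trend the fit with the block called 0 of 15092 genes, with a smallest adjusted p of 0.0558 and 3274 unadjusted p under 0.05. Under edgeR with the block all 9 were called together with MRPL9, and under DESeq2 with the block 7 were, without MRPL10 and MRPL24. These 2 fits called 1709 and 969 of all 15092 genes.

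The remaining large subunit genes included the most and least abundant ones. MRPL41 (mean 249.8 CPM) measured 236, 258, 296 and 332 CPM in control and 147, 222, 303 and 205 CPM in siG9a, a log2 change of -0.39 ± 0.15 (adjusted p 0.0965 with the block), and was lower in 3 of 4 pairs. MRPL27, which reaches the peptidyl transferase centre in bacteria, had a mean of 229 CPM and a log2 change of -0.16 ± 0.14. At the low end, MRPL39 measured 0.69, 0.61, 3.07 and 3.12 CPM in control and 8.77, 1.21, 8.56 and 6.88 CPM in siG9a. It was higher in 4 of 4 pairs with the largest estimated log2 change of the 75 genes, 1.29 ± 0.43, but 3 of its 8 libraries were below the floor of 3 reads and it was not called (adjusted p 0.0525 with the block). MRPL34 measured 6.17, 2.43, 14.8 and 2.08 CPM in control and 7.22, 7.26, 17.1 and 7.46 CPM in siG9a (adjusted p 0.172 with the block). The smallest change in the large subunit at 50 CPM or more was that of MRPL43, at -0.03 ± 0.16.

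**Figure D2:**
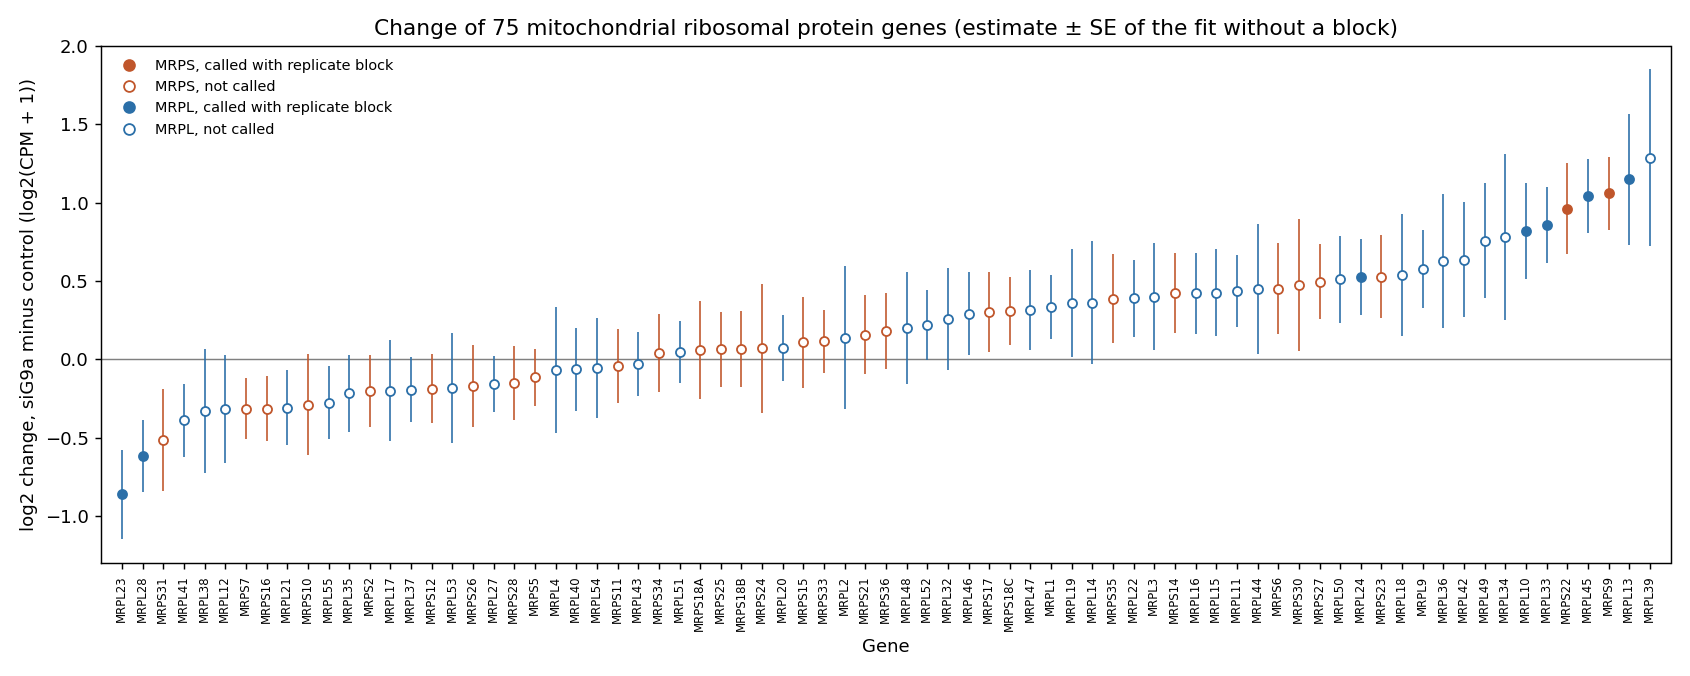
Log2 change (siG9a minus control, on log2(CPM + 1); vertical axis) of the 75 tested genes, ordered by size along the horizontal axis, with the SE of the fit without a block. Filled points are the 9 genes called with the block; 49 estimates lie above 0 and 26 below.

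Over the 75 genes tested, 49 log2 changes were above 0 and 26 below (65.3% above, against 51.1% of all genes), and the median was 0.18, against 0.01 for all genes. The median was above 0 in each pair, at 0.20, 0.16, 0.13 and 0.08 for replicates 1 to 4, with 52, 50, 50 and 43 of 75 genes higher. In 4 of 4 pairs 27 genes were higher (14.9% of all genes were) and 7 were lower (15.3% of all genes were). The 27 include MRPL1, MRPL9, MRPL11, MRPL15, MRPL16, MRPS6, MRPS23 and MRPS30 beside the genes given above, and the 7 are MRPL23, MRPL28, MRPL55, MRPS2, MRPS7, MRPS12 and MRPS16. Without replicate 3 the median was 0.17 with 49 of 75 above 0, and the groups did not overlap for 19 genes that were higher (10.5% of all genes) and 7 that were lower (11.5% of all genes), since 3 libraries against 3 part more readily. The median lay between 0.09 (without siG9a replicate 3) and 0.32 (without control replicate 3) when 1 library was left out. The genes share their libraries and are not replicates of each other, so these counts are a description.

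By origin of the protein, 1 of 16 small subunit genes with a bacterial counterpart rose (median log2 change 0.01, 8 above 0), as did 1 of 10 mitochondria-specific ones (0.09, 8 above 0). In the large subunit, 4 of 29 tested genes with a bacterial counterpart rose and 2 fell (0.36, 20 above 0), and 1 of 19 mitochondria-specific ones rose (0.20, 12 above 0). Over all genes 4.86% were called higher and 6.52% lower, with a median of 0.01. The mitochondria-specific classes include MRPS18B (small subunit) and MRPS18A (large subunit), although both are paralogs of bacterial S18. The difference between these classes was not tested. MRPS36, which was placed in no class, measured 18.7 to 26.4 CPM in control and 23.5 to 29.1 CPM in siG9a and was higher in 4 of 4 pairs, with a log2 change of 0.18 ± 0.22.

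The changes were also set against the level of expression, with the 75 genes divided at their median level of 55.9 CPM. Of the 38 at or below it, 29 had a log2 change above 0, with a median of 0.39, and 18 were higher and 0 lower in 4 of 4 pairs. Of the 37 above it, 20 had a log2 change above 0, with a median of 0.05, and 9 were higher and 7 lower in 4 of 4 pairs. All tested genes in the same 2 ranges of level had medians of 0.03 (8592 genes) and -0.02 (3116 genes). Of the 8592 genes, 52.2% had a log2 change above 0, and 1384 were higher and 1291 lower in 4 of 4 pairs. Of the 3116 genes, 48.0% had a log2 change above 0, and 579 were higher and 714 lower in 4 of 4 pairs. Calls with the block numbered 4 higher and 0 lower in the lower range, where 10.9% of all genes were called, and 3 higher and 2 lower in the upper range, where 21.5% were. Without replicate 3 the medians were 0.39 and 0.04. The division was made on the mean over all 8 libraries, and CPM from a 3′ kit orders genes by reads of transcript ends.

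**Figure D3:**
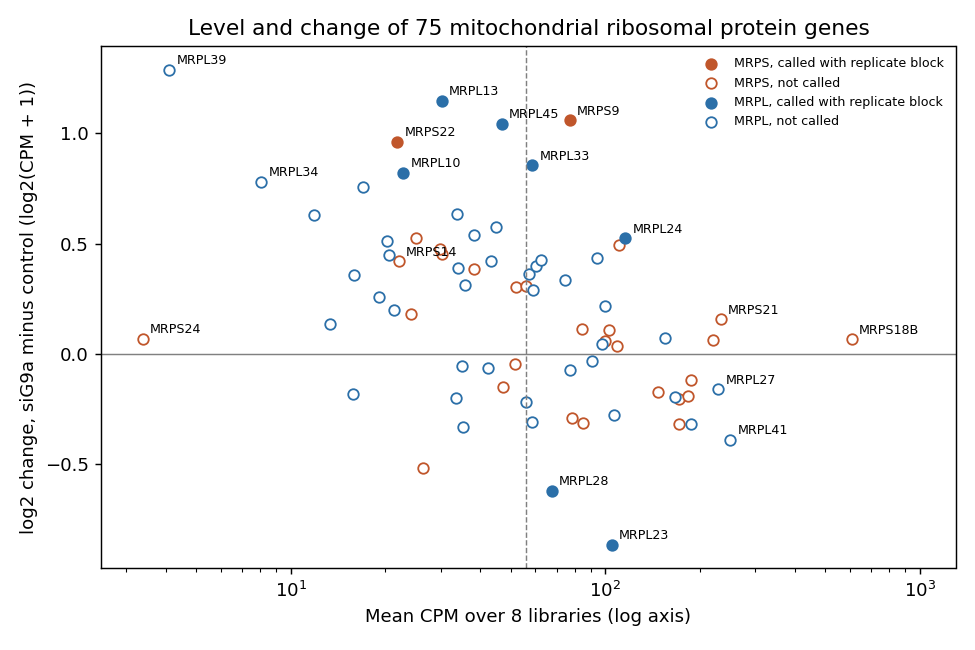
Mean CPM over the 8 libraries (horizontal log axis) against the log2 change (vertical axis) of the 75 tested genes. The dashed line marks the median level, 55.9 CPM; the points left of it have a median change of 0.39 and those right of it 0.05.

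The RNA components of the same ribosome were read as well, although they are not genes of the nucleus. Because the kit reads the ends of polyadenylated transcripts, their CPM count such reads and do not measure the amount of ribosomal RNA. MT-RNR1, the RNA of the small subunit, measured 16988, 5752, 4188 and 3558 CPM in control and 36256, 34666, 9543 and 6525 CPM in siG9a. It was higher in 4 of 4 pairs, most in pair 2, and the groups overlapped (log2 change 1.44 ± 0.21, adjusted p 8.9e-05 with and 0.363 without the block, exact permutation p = 0.171). MT-RNR2, the RNA of the large subunit, measured 33853, 18565, 15172 and 16036 CPM in control and 51926, 37721, 19980 and 15882 CPM in siG9a, and was higher in 3 of 4 pairs (0.51 ± 0.20, adjusted p 0.11 with and 0.681 without the block). Reads of all mitochondrially encoded genes made up 4.59% to 9.18% of control and 5.21% to 13.7% of siG9a libraries. Because CPM are shares, this lowers the values of nuclear genes in the libraries concerned. With those reads left out of the total, the protein genes took 0.543%, 0.589%, 0.781% and 0.629% of control and 0.622%, 0.631%, 0.821% and 0.635% of siG9a reads. The median log2 change over the 75 genes was then 0.23 against 0.06 over all genes. Of the 75, the block called 12 higher and 2 lower, adding MRPL9, MRPL39, MRPL42, MRPL49 and MRPS27. Of all 15092 genes it called 1798 in this setting, 912 of them higher.

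**Figure D4:**
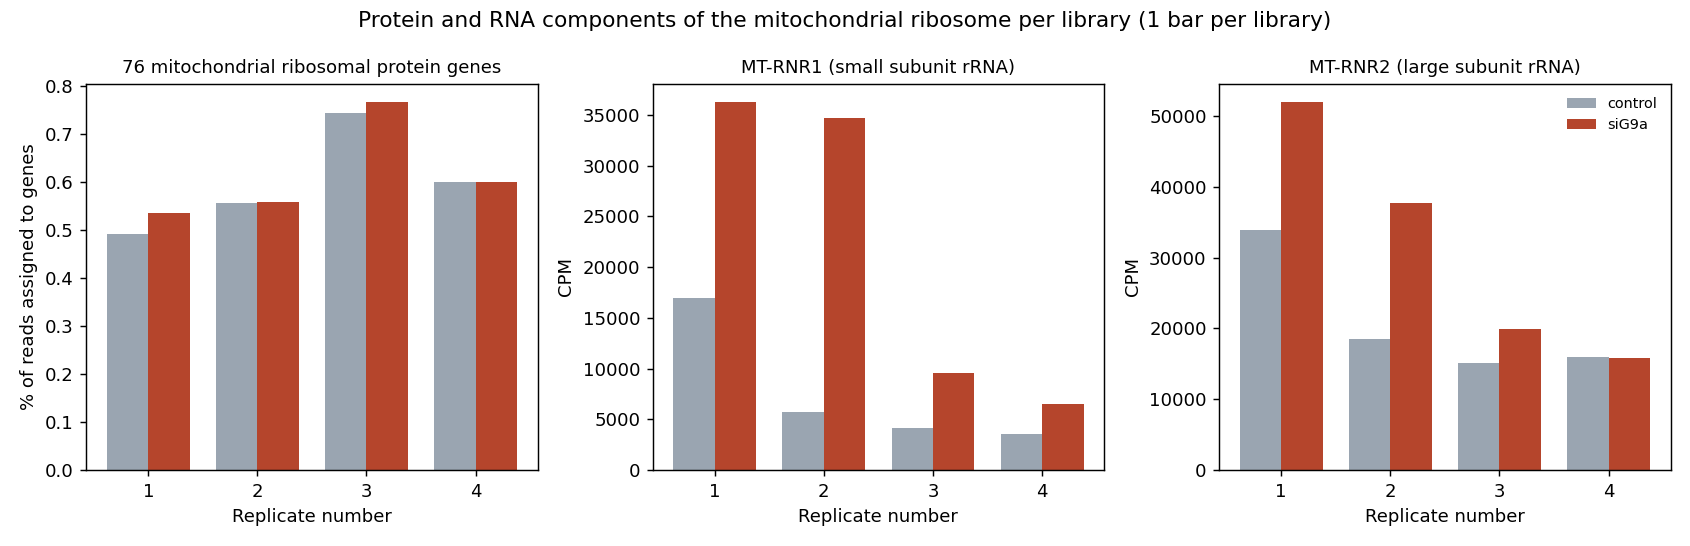
Share of reads from the 76 protein genes (left, percent) and CPM of the ribosomal RNAs MT-RNR1 (middle) and MT-RNR2 (right) by replicate number, 1 bar for each library. The protein share peaks in replicate 3 (0.744% and 0.767%), whereas MT-RNR1 is highest in replicate 1 of each group.

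Genes that build or serve the mitochondrial ribosome were examined from lists by role. Of 7 further mitochondrial ribosomal proteins with other symbols, such as DAP3 and PTCD3, 0 were called (median log2 change 0.07). Of 24 genes for assembly and ribosomal RNA modification, 2 rose and 0 fell (median 0.12). TFB1M, which dimethylates the small subunit RNA, measured 8.91, 7.90, 26.4 and 9.35 CPM in control and 20.1, 25.4, 43.4 and 18.9 CPM in siG9a, higher in 4 of 4 pairs (1.08 ± 0.26, adjusted p 0.00751 with and 0.309 without the block). C1QBP, a matrix protein required for mitochondrial translation, had means of 26.2 ± 22.8 and 40.7 ± 13.4 CPM (SD, n = 4 each; limma adjusted p 0.0358 with and 0.472 without the block) and was higher in 3 of 4 pairs.

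Of 16 translation factors, 1 rose and 0 fell (median 0.15). It was TSFM, the exchange factor of the mitochondrial elongation factor Tu, at 10.97, 9.72, 20.3 and 16.6 CPM in control and 28.9, 23.0, 49.1 and 28.1 CPM in siG9a. Its groups did not overlap (1.11 ± 0.24, adjusted p 0.00312 with and 0.210 without the block). Of 17 mitochondrial aminoacyl-tRNA synthetases, 1 rose and 0 fell (median 0.06): IARS2, for isoleucine, with means of 32.8 ± 16.3 and 53.0 ± 17.6 CPM (SD, n = 4 each; limma adjusted p 0.0142 with and 0.398 without the block). Of 15 genes of mitochondrial transcription and its regulators that could be tested, 1 rose and 0 fell (median 0.08). It was TFAM, which packages mitochondrial DNA and starts its transcription, at 81.6, 91.75, 260 and 90.3 CPM in control and 110.9, 178, 364 and 195 CPM in siG9a, higher in 4 of 4 pairs and highest in replicate 3 of both groups (0.74 ± 0.16, adjusted p 0.00242 with and 0.488 without the block). The share called in each of these lists was below the 11.4% of all genes. For comparison, 11 of the 80 cytosolic ribosomal protein genes rose and 4 fell (18.8% called), with a median of 0.04. Their median level was 856 CPM, above the highest of the 76 genes (609 CPM). In the upper range of level given above, 21.5% of all genes were called.

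How far reads of other genes enter these values depends on the counting. In GENCODE release 29, 74 of the 76 identifiers were found, the exons of 41 overlapped those of another gene and those of 16 did so on the same strand. Among the genes called, MRPS22 overlaps COPB2 on the opposite strand (60.0 CPM, log2 change 0.00) and MRPL13 overlaps MTBP (10.04 CPM, 0.42, adjusted p 0.580), while the partners of MRPS9 and MRPL23 (UTAT33 and MRPL23-AS1) were at 0.386 and 0.136 CPM and MRPL24 and MRPL10 had none. The identifiers of MRPL45 and MRPS21 were not among the 74 found, so their overlaps were not assessed. MRPS14 overlaps CACYBP on the opposite strand (69.0 CPM), which itself rose by 0.62 (limma adjusted p 0.0388 with the block). Whether the counting used strand is not given in the sources used here, and the part of these partners in the values was not tested. The identifier kept for MRPL30 shares exons on the same strand with LIPT1 (5.60 CPM), AC079447.1 (0.363 CPM) and the second identifier of MRPL30 (0.0713 CPM). The part of these overlaps in the low count of MRPL30 was not tested.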

How the data were processed

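Total RNA of Rh41 cells was sequenced as single-end QuantSeq 3′ mRNA libraries on a NextSeq500, per the labels' protocols. Per the submitters' processing notes, the tools included FastQC 0.11.8, Trim Galore, STAR 2.5.0a, HTSeq 0.8.0 and edgeR 3.28, and the builds GRCh38 and hg19 are named without a role; the annotation is not given in the sources used here. The authors deposited CPM, counts of reads assigned to genes scaled to the same total in every library, to 2 decimals for 60234 genes. All non-zero values (100%, tolerance 0.005 CPM) were whole multiples of 1 read, so the read counts were recovered.

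Tests used limma 3.58.1 (R 4.3.3, with trend) on log2(CPM + 1) for the 15092 genes that averaged 1 CPM or more, two-sided, Benjamini-Hochberg adjusted over all of them. The pseudocount understates the change of low genes. The main fit had no block; a second had the replicate number of the sample titles as a block. Libraries of equal number deviated together from their group means (correlations across genes 0.500, 0.104, 0.673 and 0.130), all above 0.1, so the numbers were taken to pair the libraries, although control replicate 2 correlated more with siG9a replicate 4 (0.144). The labels do not say what a number shares. Nothing says that the replicates came from separate thaws or cultures beyond the word biological, so p-values measure only the spread among these libraries. With the block this is the spread of the differences within pairs. In both fits limma draws the variance of a gene toward that of genes at a similar level, which also enters each SE. Floors cover counting error only.

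Alternatives were other pseudocounts, filters and scalings, no trend, edgeR 4.0.16 and DESeq2 1.42.0 on the recovered reads, and each library or pair left out. Leaving mitochondrially encoded reads out of the total, and the counts of non-overlapping groups under alternatives, were chosen after seeing the data. Scripts were tested on simulated data. The gene set and all lists were chosen with earlier results of these data known. Genes named are those called in either fit, those with non-overlapping groups, the 4 highest and 4 lowest by mean, the MRPS18 paralogs, the 3 smallest changes at 50 CPM or more, those with a library beyond Dixon's critical value, and called genes of each list; others are named only in counts by pair, or where an alternative called them; MRPS36 is named as the gene in neither class.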

Additional observations from a re-analysis of the deposited data

Results flagged for a closer look

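In 16 of the 150 groups of 4 libraries over the 75 tested genes, 1 library lay beyond Dixon's 95% critical value. In 11 of the 16 that library was replicate 3. Chance gives about 5% where groups are independent, but these genes share their libraries and are not replicates of each other. The share over all genes tested was not counted, so the 16 are a description. In control, replicate 3 stood above the other 3 libraries for MRPL36 (19.68 CPM, others 5.47 to 6.85), MRPL42 (53.5, others 16.1 to 20.66), MRPL54 (61.49, others 25.96 to 30.16), MRPS12 (259.5, others 167.94 to 182.29) and MRPS27 (142.05, others 74.25 to 82.26). In siG9a, replicate 3 stood above the others for MRPL3 (113.62 CPM, others 49.0 to 57.35), MRPL34 (17.13, others 7.22 to 7.46), MRPL43 (108.48, others 81.71 to 85.63), MRPL46 (90.78, others 52.66 to 57.92), MRPL48 (33.11, others 18.05 to 20.07) and MRPS12 (229.52, others 151.41 to 153.2). MRPS12 was the only gene of the 75 set apart in both groups.

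Other libraries stood apart for 5 genes. Control replicate 4 was high for MRPL10 (24.4 CPM, others 13.02 to 14.14), control replicate 2 was low for MRPL17 (19.44, others 40.44 to 43.66) and control replicate 1 was low for MRPL37 (134.35, others 188.97 to 199.85). In siG9a, replicate 2 was low for MRPL22 (29.05, others 40.72 to 42.82) and replicate 4 was high for MRPL53 (23.51, others 11.35 to 12.56).

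Among the measures beside single genes, the share of the 76 genes in the reads that were not mitochondrially encoded was 0.8207% in siG9a replicate 3, against 0.621608% to 0.634528% in the other siG9a libraries. MYOD1 was at 95.31 CPM in control replicate 3, against 817.27 to 864.39 CPM in the other controls. MT-RNR1 was at 16987.6 CPM in control replicate 1, against 3557.83 to 5752.49 CPM in the other controls.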

How the results depend on the processing

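The number of genes called higher was 0 without the replicate block, 7 with the replicate block, 2 with DESeq2 without a block, and 0 to 2 when a library or pair was left out without the block (1 without control replicate 3, MRPL45; 2 without replicate 3, MRPL45 and MRPS9). Of all 15092 genes, these fits called 300 without control replicate 3 and 413 without replicate 3, in either direction. Among the 75 genes, the number called lower was 0 without and 2 with the replicate block. With the block, the number higher was 0 without the variance trend, 12 with mitochondrially encoded reads left out of the total, and 3 to 9 when a library or pair was left out (3 without replicate 2 of either group or both, 4 without replicate 1). Of all 15092 genes, the same fits called 0, 912 and 243 to 589 higher, against 733 in the fit with the block on all libraries. Among the 75 genes, the number lower with the block was 0 without the trend and 1 to 2 in the leave-outs, all of which lost MRPL28 and kept MRPL23. The second call, without replicate 4 of either group or both, was MRPL12. EHMT2 passed the threshold only with the replicate block (log2 change -1.10). The median log2 change of 0.18 ran from 0.0918 to 0.317 in the leave-outs (0.0918 without siG9a replicate 3, 0.317 without control replicate 3), was 0.229 with mitochondrially encoded reads left out, and moved by less than 0.0485, the SD of the 4 pair medians, under the other settings.

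The sign of the log2 change turned under at least 1 setting without the block for 21 of the 75 genes, 10 of them named by the rule and 11 not (such as MRPL4, and MRPL38 with the largest main change of the 21, 0.33 in size); none of the 9 genes called was among them. MRPL43 was at 0.012 under quantile normalization and 0.020 with mitochondrially encoded reads left out, MRPS11 at 0.0067 with those reads left out, and MRPS34 at -0.0072 with edgeR and -0.017 with DESeq2. When a library or pair was left out, the log2 changes ran from -0.12 to 0.048 for MRPL43, -0.042 to 0.44 for MRPL48, -0.42 to 0.038 for MRPL53, -0.23 to 0.22 for MRPL54, -0.16 to 0.20 for MRPS11, -0.18 to 0.28 for MRPS18A, -0.094 to 0.24 for MRPS18B, -0.042 to 0.31 for MRPS21, -0.25 to 0.36 for MRPS24 and -0.14 to 0.21 for MRPS34. The cause of these shifts was not tested. With 1458825 to 1938665 reads in a library, genes near the floor, such as MRPS24 and MRPL39, rest on a few reads.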
